A study of Mus musculus with 2 samples.

Results

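*Klk1*, the tissue kallikrein, and 6 of its *Klk1b* paralogs (*Klk1b5*, *Klk1b21*, *Klk1b22*, *Klk1b24*, *Klk1b26* and *Klk1b27*) were examined in vaginal RNA of WT and *Fbln5*-/- mice. The probe sets were found by gene symbol: each probe set whose annotation listed 1 of the 7 genes, alone or with a paralog, was taken. This gave 11 of the 45101 probe sets of the Affymetrix mouse expression chip. The 7 genes themselves were chosen from earlier results of these arrays, in which *Klk1* was lower in *Fbln5*-/- vagina, so its signals and ratios are given as a description and not as a finding of the choice.

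Both groups were female mice of the C57/Bl6 background, labelled as 6 months old, that had been ovariectomized and then given estradiol at 50 µg/kg/d for 3 d. WT mice were wild type at *Fbln5*, and *Fbln5*-/- mice lacked this elastic fibre gene. The labels place ovariectomy at 11 d and the series description at 2 weeks, while the methods place estradiol 2 weeks after surgery. The methods state 2 animals in each group, but the table holds 1 array for each genotype, and whether RNA was pooled is not given in the sources used here. There are no replicates, so differences between the arrays carry neither an animal-to-animal error nor a p-value.

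Tissue kallikrein is a secreted serine protease that releases kinins from kininogens. In the mouse the *Klk1b* genes are recent copies of *Klk1*, best known from the submandibular gland, where several of their products bind or process growth factors such as EGF. *Klk1b22* encodes an EGF-binding protein. The copies lie side by side in a cluster that also holds the kallikreins of stratified epithelium, and members of the family are known to respond to sex steroids.

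The copies are also close in sequence upstream of their starts; transcript and probe sequences were not analysed here. The 250 bases before the RefSeq start (GRCm38.p6, all on the + strand) are shown for *Klk1* and for the 3 paralogs that had a probe set at a signal of 100 or more. Capitals mark TGACCT on either strand, the half-site bound by estrogen receptors. The windows are chr7:44225110-44225359 for *Klk1*, chr7:44102042-44102291 for *Klk1b21*, chr7:44187986-44188235 for *Klk1b24* and chr7:44112423-44112672 for *Klk1b22*.
Klk1: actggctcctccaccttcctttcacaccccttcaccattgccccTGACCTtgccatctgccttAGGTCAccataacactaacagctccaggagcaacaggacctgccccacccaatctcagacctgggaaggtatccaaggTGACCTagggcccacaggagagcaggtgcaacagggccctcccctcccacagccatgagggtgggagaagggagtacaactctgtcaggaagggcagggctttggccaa
Klk1b21: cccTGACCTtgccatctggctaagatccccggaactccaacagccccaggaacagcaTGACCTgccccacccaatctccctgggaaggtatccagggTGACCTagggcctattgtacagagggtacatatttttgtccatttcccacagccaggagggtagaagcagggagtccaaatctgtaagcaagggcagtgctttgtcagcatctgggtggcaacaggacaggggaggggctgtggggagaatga
Klk1b24: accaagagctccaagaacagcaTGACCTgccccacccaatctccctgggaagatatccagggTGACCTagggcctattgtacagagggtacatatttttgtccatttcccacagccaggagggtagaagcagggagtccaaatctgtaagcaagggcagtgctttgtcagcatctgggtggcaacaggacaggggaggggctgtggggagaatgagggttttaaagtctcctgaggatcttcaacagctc
Klk1b22: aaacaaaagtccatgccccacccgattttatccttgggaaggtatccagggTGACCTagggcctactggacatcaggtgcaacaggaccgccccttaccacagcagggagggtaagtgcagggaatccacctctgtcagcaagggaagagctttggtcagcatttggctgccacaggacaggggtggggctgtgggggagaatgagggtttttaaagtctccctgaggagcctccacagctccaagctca

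Promoter windows of all 7 genes were found in the RefSeq table. Over the aligned bases, the *Klk1* window was between 76.9% (*Klk1b22*) and 85.4% (*Klk1b5*) identical to those of its paralogs. *Klk1b21* and *Klk1b24* were 97.7% identical over 215 aligned bases and shared an unbroken run of 162 bases. *Klk1b21* and *Klk1b27* were 94.6% identical. TGACCT, searched on both strands, was present in the windows of 6 of the 7 genes, all but *Klk1b26*, and in 14% of the 32851 promoters of the table. The run GGTGACCTAGGG, which contains it, was the longest shared by these 6 genes. It was picked for being shared, so its presence in them was fixed by that choice. It occurred in 8 of 14 *Klk1* and *Klk1b* promoters. The share over all promoters, 0.0244%, includes these and is no separate background. The full palindrome GGTCANNNTGACC was in none of the 7 windows and in 0.0639% of all promoters. TTTAAA was found in 5 of the 7 windows, all but those of *Klk1* and *Klk1b21*, and in 12.1% of all promoters. The *Klk1b21* window ended with its run of 162 bases shared with *Klk1b24*, whose window went on to TTTAAA. The *Klk1* window ended in letters like some that lie upstream of TTTAAA in the *Klk1b22* window. Bases past the starts were not searched, so neither absence shows that the gene lacks TTTAAA nearby. The motif matches describe letters in a window and say nothing about binding.

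The deposited values were MAS5 signal intensities on a linear scale, scaled here to a common median (69.8 on both arrays). A ratio was counted only where 1 array or both reached a signal of 100, since the methods left out readings under 100 in both groups. Ratios are the *Fbln5*-/- signal over the WT signal on the log2 scale. Where 1 array was under 100, the fold was also given as a bound against 100, and a probe set under 100 on both has no fold.

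*Klk1* was represented by 4 probe sets, and all 4 passed this filter. At the one with the highest mean, 1455977_x_at, the signal was 1975 for WT and 114.7 for *Fbln5*-/-, which is 17.2-fold lower (log2 ratio −4.11). At 1448107_x_at the signals were 1111 and 85.5, at least 11.1-fold lower. At 1415837_at they were 912.0 and 73.6, at least 9.12-fold lower. The last of these is the 1 *Klk1* probe set without the _x suffix, which Affymetrix gives to probe sets with probes that can match other transcripts.

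The fourth probe set, 1460050_x_at, stood apart. Its signals were 243.4 for WT and 148.6 for *Fbln5*-/-, a log2 ratio of −0.71, so it was not 2-fold lower. The log2 ratios of the 4 *Klk1* probe sets had an SD of 1.56 between probe sets, while the pooled SD between probe sets of the same gene was 0.52 over 4114 genes measured on both arrays. Where the probes lie along the *Klk1* transcript was not analysed here.

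Both arrays reached 100 at 18691 probe sets, of which 5 had a lower ratio than the brightest *Klk1* probe set. This limit left out probe sets under 100 on the *Fbln5*-/- array. Among these, *Rab7b*, *Rpgrip1* and *Gpr83* had lower ratios than *Klk1* (−4.68, −4.75 and −4.67), so the rank depends on the limit. Of 635 genes with 4 or more probe sets past the filter, 10 had at least 3 that were 2-fold lower or more (1.57%), and *Klk1* was 1 of these 10. These 2 limits match the *Klk1* probe sets themselves (3 of 4), and *Klk1* was picked for being lower on these arrays. Its rank and its place among the 10 therefore follow from that choice and describe it only. In whole tissue, fewer cells that make *Klk1* and less *Klk1* RNA in each cell cannot be told apart. The arrays also differed in their 5′ control signals, given below, and the part of this in the *Klk1* ratio was not tested.

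**Figure D1:**
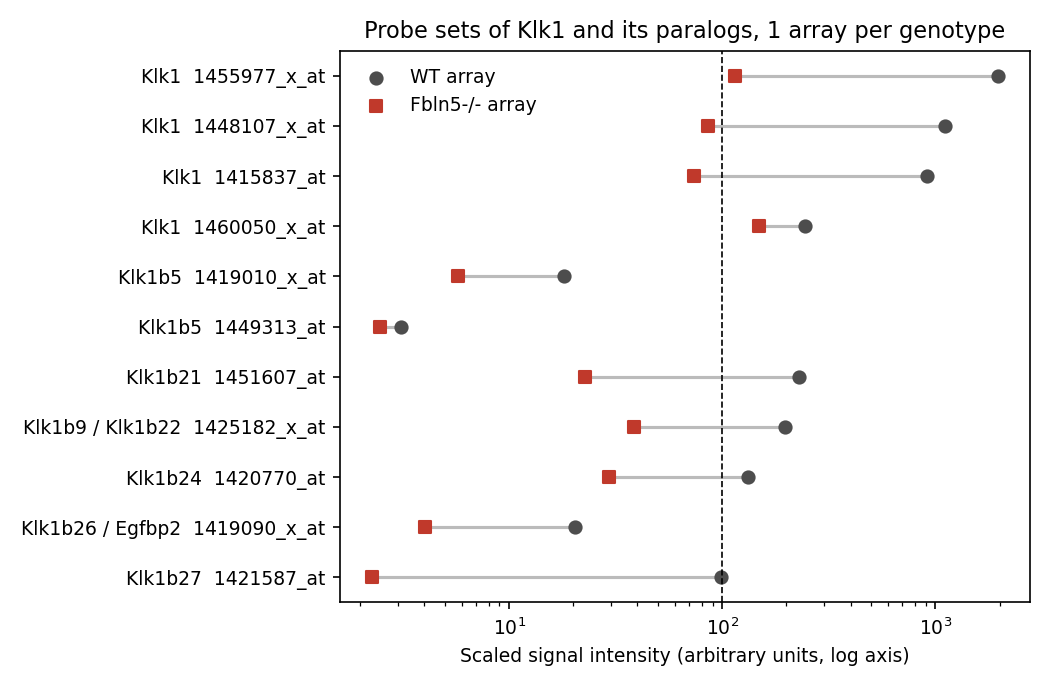
Scaled signal intensity (log axis) of the 11 probe sets of *Klk1* and its paralogs in WT (circles) and in *Fbln5*-/- vagina (squares), 1 array per genotype, with a dashed line at 100. The *Fbln5*-/- signal lies below the WT signal at each probe set. Among the *Klk1* probe sets the gap is narrowest at 1460050_x_at (243.4 and 148.6).

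Of the paralogs, *Klk1b21* gave a WT signal of 230.0 and an *Fbln5*-/- signal of 22.7, at least 2.30-fold lower. *Klk1b24* had signals of 131.8 and 29.3, at least 1.32-fold lower, and was the member nearest above the limit of 100. *Klk1b22*, an EGF-binding protein gene, shared its only probe set with *Klk1b9*, another EGF-binding protein gene. That probe set had signals of 196.3 and 38.7, at least 1.96-fold lower, and its signal cannot be divided between the 2 genes. These 3 probe sets were under 100 on the *Fbln5*-/- array, so the WT array alone carried them past the filter, and they could not have been counted as higher.

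The other paralogs were under 100 on both arrays. *Klk1b27* lay just below the limit, with signals of 98.1 for WT and 2.26 for *Fbln5*-/-. Its WT signal was 100.9 as deposited, so that on the deposited scale, and with arrays scaled to a median ratio of 1, 8 probe sets passed the filter and 7 were at least 2-fold lower. *Klk1b26*, on a probe set that it shares with *Egfbp2*, had signals of 20.4 and 4.01. A second probe set, annotated to *Egfbp2* alone and so not among the 11, had signals of 41.6 and 29.5. *Klk1b5* had signals of 18.0 and 5.76 at 1 probe set and 3.11 and 2.47 at the other. For these genes the arrays gave signals too low for a fold.

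Taken as measured, all 11 probe sets had a lower signal on the *Fbln5*-/- array. Of the 7 past the filter, 6 were at least 2-fold lower and 0 were at least 2-fold higher, and 4 of 7 were 2-fold lower once signals under 100 were set to 100. At 5 of the 7 the *Fbln5*-/- signal was under 100. These passed through the WT array alone and could not have been counted as higher. The 6 comprise 3 for *Klk1*, 1 each for *Klk1b21* and *Klk1b24*, and the probe set of *Klk1b9* and *Klk1b22*. Over all 21508 probe sets past the filter, 8.52% were at least 2-fold lower (6.28% with signals under 100 set to 100) and 6.49% were at least 2-fold higher. The median log2 ratio of the 7 was −3.34 (−1.20 with signals under 100 set to 100), beside 0.10 (0.09) over all probe sets. Since these ratios were known when the group was picked and the genes may share probe targets, the count describes the probe sets and does not amount to 7 separate measurements. Without probe sets whose names end in _x_at, _s_at or _a_at, 3 of 3 were at least 2-fold lower as measured and 2 of 3 with signals under 100 set to 100.

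**Figure D2:**
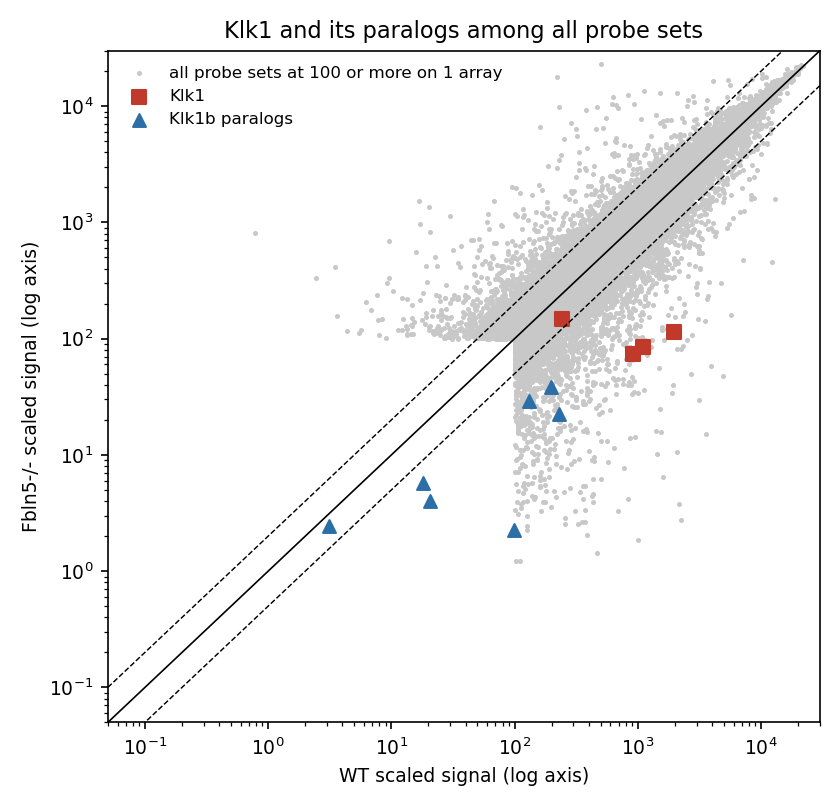
WT signal (x axis) against *Fbln5*-/- signal (y axis), both scaled and on log axes, for the 21508 probe sets past the filter (grey), the 4 *Klk1* probe sets (squares) and the 7 *Klk1b* probe sets (triangles), 1 array for each genotype. The solid line marks equal signals and the dashed lines a 2-fold difference; 3 *Klk1* squares lie well below the lower dashed line and 1 lies inside both.

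The ratio of 5′ to 3′ control signals differed between the arrays. The control probe set at the 5′ end of *Gapdh* was 21.7-fold lower on the *Fbln5*-/- array (17262 and 794.7), while that at its 3′ end had signals of 13329 and 13829. For *Actb* the log2 ratio was −1.87 at the 5′ end and −0.18 at the 3′ end. At the middle control probe sets it was −1.16 for *Gapdh* and −1.22 for *Actb*, so both were more than 2-fold lower on the *Fbln5*-/- array. The part of this difference in the *Klk1* and *Klk1b* signals was not tested. *Fbln5*, the targeted gene, gave 410.4 in WT and 30.4 in *Fbln5*-/- vagina at the brighter of its probe sets, at least 4.10-fold lower.

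The question whether the decrease ran through the whole kallikrein cluster was addressed by ordering its genes along chromosome 7. Of 26 protein-coding kallikrein genes from *Klk14* to *Klk1*, 22 had a probe set. In the *Klk1* and *Klk1b* part, 5 of 12 genes were measured, through 4 probe sets. All 4 were at least 2-fold lower as measured, and 2 of 4 (*Klk1* and *Klk1b21*) with signals under 100 set to 100. The 3 beside *Klk1* passed the filter through the WT array alone and could not have been counted as higher. In the other part, from *Klk4* to *Klk13*, 8 of 10 genes were measured, of which 6 were at least 2-fold higher and 0 lower, with a median log2 ratio of 1.92. Among these, *Klk6* passed the filter through the *Fbln5*-/- array alone and could not have been counted as lower. With 100 required on both arrays, 5 were at least 2-fold higher and 0 lower. By gene, 4.77% of the 11934 genes measured were at least 2-fold lower and 7.21% at least 2-fold higher.

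The higher genes were kallikreins known from stratified epithelium. *Klk7*, which cleaves corneodesmosomes, gave a WT signal of 184.7 and an *Fbln5*-/- signal of 1500 (log2 ratio 3.02), and *Klk9* had signals of 294.1 and 1798 (2.61). *Klk6* was at least 3.08-fold higher (49.4 and 308.3). *Klk12*, *Klk8* and *Klk13* had log2 ratios of 2.05, 1.79 and 1.43. *Klk11* (0.60) and *Klk10* (0.15) were within 2-fold, and *Klk5* and *Klk4* were under 100 on both arrays. *Klk1* and these genes thus differed in opposite directions on the same pair of arrays.

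The 4 *Klk1b* genes outside the 7 that had a probe set of their own were all under 100 on both arrays. Their signals were 30.9 and 43.3 for *Klk1b8*, 11.4 and 1.95 for *Klk1b1*, 5.64 and 12.4 for *Klk1b16*, and 2.43 and 3.50 for *Klk1b11*. At these levels 3 of the 4 were nominally higher on the *Fbln5*-/- array, and no fold is given. The 5 genes on each side of the cluster were also read, and 3 of them in all were measured. *Zfp719* and *Ctu1*, beyond *Klk14*, had log2 ratios of 0.27 and 0.06. *2410002F23Rik*, the nearest measured gene beyond *Klk1*, had signals of 965.4 and 330.6 (log2 ratio −1.55).

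**Figure D3:**
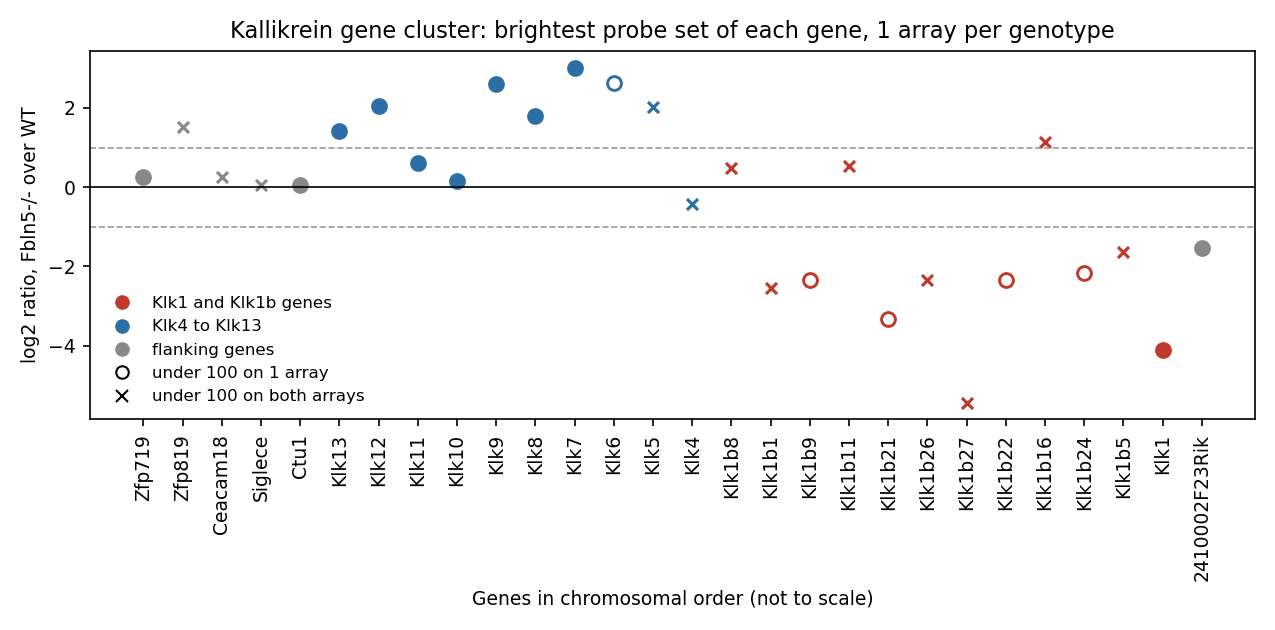
Log2 ratio of the *Fbln5*-/- array to the WT array at the brightest probe set of each gene, with genes in chromosomal order and not to scale; dashed lines mark a 2-fold difference, open circles are under 100 on 1 array and crosses under 100 on both. *Klk1b9* and *Klk1b22* show the same probe set. The 8 measured genes from *Klk13* to *Klk6* lie between 0.15 and 3.02, and *Klk1* lies at −4.11.

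Most measured genes of the kallikrein-kinin system were within 2-fold between the arrays. Of 21 listed, 12 were measured, of which 2 were higher in *Fbln5*-/- vagina by 2-fold or more and 1 was lower by as much, beside 7.21% and 4.77% of all genes, with a median log2 ratio of 0.16. Counts this small cannot be told apart from those shares. The lower gene was *Bdkrb1*, the inducible kinin B1 receptor, with signals of 266.1 and 68.5, at least 2.66-fold lower on its 1 probe set. It passed the filter through the WT array alone and could not have been counted as higher. *Bdkrb2*, the constitutive B2 receptor, was under 100 on both arrays (82.8 and 99.0), as was *Kng1*, which encodes the kininogen substrate (27.0 and 47.4).

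The 2 higher genes encode peptidases that act on kinins. *Mme* (neprilysin) had signals of 53.5 and 337.5, at least 3.37-fold higher, while its other probe set was under 100 on both arrays. The brighter probe set passed the filter through the *Fbln5*-/- array alone and could not have been counted as lower. *Cpd*, a carboxypeptidase, had a log2 ratio of 1.36 at its brightest probe set and of 0.30, −0.77 and −1.55 at the 3 others past the filter, so its direction depended on the probe set. *Ace*, the angiotensin-converting enzyme that also degrades bradykinin, had signals of 300.3 and 316.0. *Serping1*, the inhibitor of plasma kallikrein, had signals of 3454 and 6429 (log2 ratio 0.90). *Xpnpep1* and *Ece1*, further kinin-degrading peptidases, had log2 ratios of 0.35 and −0.41, and *Anpep*, an aminopeptidase, of −0.28.

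**Figure D4:**
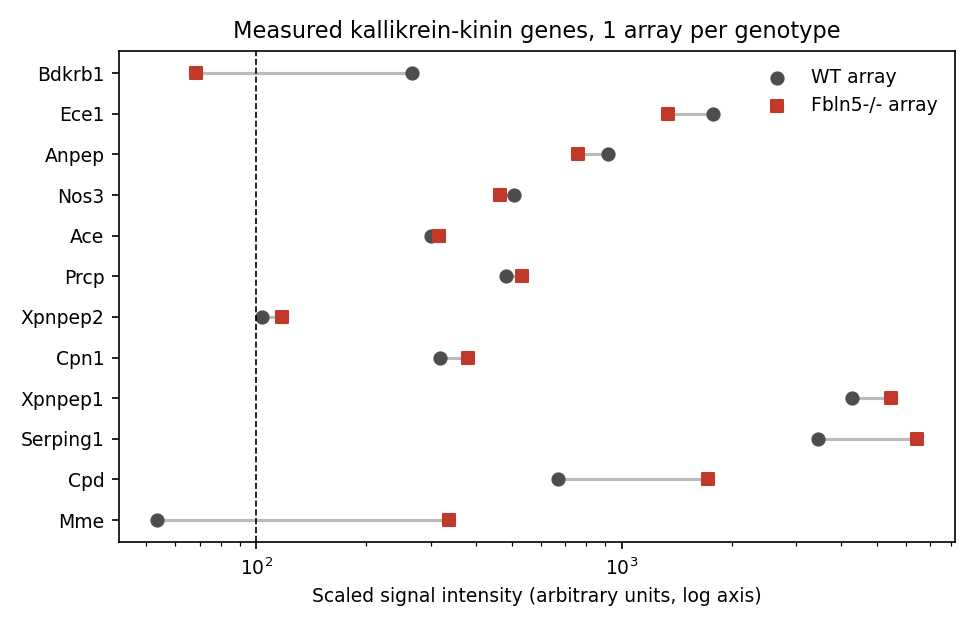
Scaled signal intensity (log axis) of the 12 measured genes of the kallikrein-kinin system in WT (circles) and in *Fbln5*-/- vagina (squares), 1 array per genotype, brightest probe set per gene, with a dashed line at 100. *Bdkrb1* is lower on the *Fbln5*-/- array (266.1 and 68.5), *Cpd* and *Mme* are higher, and the other 9 lie within 2-fold.

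Among proposed substrates and partners of tissue kallikreins, 5 of 8 were measured. Of these, 1 was at least 2-fold higher and 0 lower, beside 7.21% and 4.77% of all genes. The higher gene was *Scnn1b*, for the β subunit of the epithelial sodium channel, with signals of 316.1 and 648.8, just past 2-fold. The α subunit gene *Scnn1a* had signals of 1711 and 1656, and *Scnn1g*, for the γ subunit, had a log2 ratio of 0.42. *Egf*, which the EGF-binding kallikreins process, had signals of 84.3 and 155.7, at least 1.56-fold higher. *Igfbp3*, an IGF-binding protein, had a log2 ratio of 0.72.

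*Klk1* is also made by salivary ducts, kidney tubules, pancreas and other glands, so markers of these tissues were read on the same arrays. All 9 measured markers of stratified epithelium were at 6103 or more on both arrays at their brightest probe set, none 2-fold different, with *Krt13* at 19999 and 21197. *Trp63*, a transcription factor of basal cells, had log2 ratios of 0.22 and 0.63 at 2 of its probe sets and of −1.47 and −4.47 at 2 others (290.5 and 104.6, and 285.6 and 12.9). Of 7 salivary genes with a probe set, 6 were under 100 on both arrays, among them *Smgc* (18.1 and 6.99) and *Bpifa2* (25.0 and 4.83), and the list's summed signal was 327.2 for WT and 367.0 for *Fbln5*-/-. The exception, *Aqp5*, an aquaporin of several secretory epithelia, had signals of 251.0 and 295.0. Of 6 kidney tubule genes, 5 were under 100 on both arrays and *Kap* had signals of 236.6 and 205.8. Of 5 pancreatic genes, 4 were under 100 on both, and *Cela1* had signals of 152.3 and 217.6.

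Columnar and glandular genes were measured throughout. Of 12, 2 were higher in *Fbln5*-/- vagina by 2-fold or more and 0 lower, beside 7.21% and 4.77% of all genes, with a median log2 ratio of 0.13 and a summed signal of 40386 for WT and 44401 for *Fbln5*-/-. The simple-epithelial keratins *Krt7*, *Krt8*, *Krt18* and *Krt19* had log2 ratios between −0.03 and 0.20. *Pigr*, the receptor that carries immunoglobulin across glandular epithelium, had signals of 114.0 and 884.9, and its second probe set had a log2 ratio of 2.67. *Muc4*, a membrane mucin gene, had signals of 17.9 and 145.4, at least 1.45-fold higher, so that 1 of the 12 was 2-fold higher with signals under 100 set to 100. *Foxa2*, a factor of glandular epithelium, had signals of 132.8 and 87.3. Of the urothelial genes, *Upk1a* had signals of 126.7 and 45.0 (at least 1.27-fold lower) and *Upk2* of 463.8 and 441.8, while 4 of 6 were under 100 on both. All 6 smooth muscle and all 5 mast cell genes lay within 2-fold at their brightest probe set, while a second probe set of *Kit*, the stem cell factor receptor gene, had signals of 135.6 and 46.2. The part of any of these tissues in the *Klk1* signal was not tested.

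The measured genes tied to the steroid treatment differed by less than 2-fold between the arrays at their brightest probe sets, *Greb1* the most. *Esr1*, the estrogen receptor α gene, had signals of 7499 and 9329, and *Pgr*, the progesterone receptor gene, had signals of 9320 and 7997. *Ltf*, the estrogen-responsive lactotransferrin gene, had signals of 14452 and 15164. *Greb1*, another estrogen-responsive gene, had a log2 ratio of −0.75. None of the 4 measured genes of this list of 8 was 2-fold different, and the median log2 ratio was −0.08.

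The genes with the pattern nearest to that of *Klk1* were sought by the distance between log2 signals over the 2 arrays, taking its brightest probe set. The 5 nearest were *Rab7b*, *Rpgrip1*, *Gpr83*, *Junb* and *Bcam*, at distances of 0.41, 0.47, 0.49, 0.50 and 0.64. *Rab7b*, a small GTPase of late endosomes, had signals of 2506 and 97.6, and both of its probe sets past the filter were at least 2-fold lower. *Gpr83*, a G protein-coupled receptor, had signals of 2094 and 82.2, with 2 of 2 probe sets lower. *Junb*, an AP-1 transcription factor, had signals of 2780 and 108.2 on its 1 probe set. *Bcam*, an adhesion molecule that binds laminin, had signals of 2432 and 170.3. With 2 arrays, likeness means a similar pair of signals and nothing more.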

How the data were processed

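RNA from vagina of WT and *Fbln5*-/- mice was hybridized to 1 Affymetrix mouse array per genotype. The values deposited by the authors are linear MAS5 signal intensities (the processing notes name MAS5 and no version was found in the labels). Detection calls were not used here.

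Intensities were scaled to a common median, as in the methods (50th percentile; factors 0.972 for WT and 1.03 for *Fbln5*-/-), and a signal of 0 was set to 0.1. Control probe sets (64) were left out of counts. Of the 45101 probe sets, 34958 had 1 gene symbol in the platform annotation, 932 several and 9211 none; 34750 were matched by gene identifier to the RefSeq table of GRCm38.p6, which served for names and gene order only, since no build is named for the files. For a listed gene the probe set of highest mean signal was taken. Genes were named by rule: each probe set of the 7 genes, the measured *Klk* genes, up to 6 measured genes per list by mean signal, the 5 genes nearest to *Klk1* (Rik and Gm genes passed over) and the controls. *Ace*, *Bdkrb1*, *Mme*, *Pigr*, *Muc4*, *Foxa2*, *Trp63*, flanking genes, unmeasured genes and further probe sets fall outside this rule and were named after their values were seen. The members and lists were chosen with earlier results of these data known.

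With 1 array per genotype no test was made, and the number of arrays limits the precision. Promoter windows and their matches come from RefSeq (GRCm38.p6), with the 50 bases after the start left out, and were aligned pairwise with free end gaps. The steps were tested on simulated data with changes planted in bright probe sets only. Signals as low as those of most *Klk1* and *Klk1b* probe sets were not covered. Python 3.11.15, numpy 2.4.6, pandas 2.3.3, matplotlib 3.10.9 and biopython 1.88 were used.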

Additional observations from a re-analysis of the deposited data

How the results depend on the processing

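No paired analysis was possible because each genotype has 1 array. The *Klk1* log2 ratio at the brightest probe set lay between −4.21 and −3.77 under all alternatives in which that probe set was kept, and none of the 7 *Klk1* and *Klk1b* probe sets past the filter changed sign under an alternative that kept it. Quantile normalization, scaling to the 75th percentile or to a median ratio of 1, the signals as deposited, a limit of 200 on 1 array and only probe sets with 1 symbol were run for the *Klk1* and *Klk1b* ratios and counts, the counts of other kallikreins and of kallikrein-kinin genes, and the shares over all probe sets. They moved none of these by more than the pooled SD between probe sets (0.52) or, for counts and shares, by over 1.5 times, though probe sets that an alternative left out have no value there. The other gene lists were not recomputed.

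The median log2 ratio of the *Klk1* and *Klk1b* probe sets became −1.20 with signals under 100 set to 100, −2.26 with 32 added to each signal, −2.41 at 100 or more on both arrays and −2.35 with no filter. With 100 required on both arrays, 1 of 2 probe sets was at least 2-fold lower, and 3 of 3 were when names ending in _x_at, _s_at or _a_at were left out. *Klk1b21* moved to −1.20 and −2.26, the *Klk1b9* and *Klk1b22* probe set to −0.97 and −1.69, and *Klk1b24* to −0.40 and −1.42, with the floor and with 32 added. Over all probe sets, the share at least 2-fold lower became 5.02% at 100 or more on both arrays and 13.8% with no filter, and the share at least 2-fold higher 12.2% with no filter. At 3-fold these shares were 4.31% and 2.32%. For the kallikrein-kinin genes, 1 was higher and 0 lower at 100 or more on both arrays, 5 were higher with no filter, and 1 was higher at 3-fold. A floor and an added signal shrink ratios of dim probe sets by construction, and a filter changes which are counted. Signals under 100, 54.8% of WT and 55.9% of *Fbln5*-/- probe sets, limit what can be said of 9 of the 11 probe sets, of which 4 were under 100 on both arrays.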
